A study of Mus musculus with 16 samples.

Results

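The matrix metalloproteinases and their tissue inhibitors were followed in macrophages and monocytes sorted from mouse sarcomas. Members were the rows of the deposited matrix whose gene ID carries the symbol Mmp2, Mmp9, Mmp12, Mmp13, Mmp14, Mmp19, Timp1, Timp2 or Timp3 in the authors' deposited comparison tables. All 9 were found, 6 proteinases and 3 inhibitors, of 30819 genes. MN/MCA1 fibrosarcoma cells were placed under the skin of C3-/- or wild-type C57BL/6J mice, and tumours were taken on day 21. The 4 groups of 4 libraries were C3-/- macrophages (mice 6 to 9), wild-type macrophages (mice 1 to 4), C3-/- monocytes (mice 6 to 9) and wild-type monocytes (mice 1 to 4). Both sorted populations were CD45+, CD11b+, Ly6G- and CD11c-. The macrophage gate was Ly6C- and F4/80+, and the monocyte gate Ly6C+ and F4/80-. All mice received the same tumour line, so the genotype is that of the host. Tumours were dissociated with added collagenase before sorting. The labels give neither sex nor age.

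Matrix metalloproteinases are zinc enzymes that cut collagens, elastin, proteoglycans and many cell surface proteins, and most are secreted as inactive precursors. Tissue inhibitors of metalloproteinases block the active enzymes. TIMP2 also has an adaptor role: at the cell surface it is held by MMP14, a membrane-anchored proteinase, and presents the MMP2 precursor for cleavage by another MMP14 molecule. Macrophages in tumours are a known source of several of these enzymes. RNA levels do not show enzyme activity.

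Libraries held 18689323 to 29049256 reads, as recovered from the deposited values. A normalized read is a recovered read divided by the library's size factor, the scaling for depth. The deposited values are on a log2 scale that draws low values towards the gene's mean, so differences on it are smaller than differences of log2 reads. C3, the targeted gene, stood at 1076 to 1390 normalized reads in knockout macrophages, against 3262 to 4830 in wild-type macrophages. In knockout monocytes it stood at 4624 to 5204 normalized reads, against 14607 to 16131 in wild-type monocytes. The groups did not overlap, so the genotype labels and the C3 reads matched, although reads assigned to C3 remained in the knockout. Most markers matched the gates. In each genotype 8 of 10 macrophage markers were higher in macrophages than in monocytes and 1 was lower, and 7 of 7 monocyte markers were lower. Of all genes tested 31% were higher and 29.6% lower in knockout macrophages, and 31.7% and 31.7% in wild-type macrophages.

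The members lie on 7 chromosomes in the mouse build GRCm38. Mmp12, macrophage elastase (chr9:7344381-7369499, plus strand), and Mmp13, a collagenase of fibrillar collagens (chr9:7272514-7283331, plus strand), are neighbours in a metalloproteinase cluster. Timp1 (chrX:20870166-20874735, plus strand), the inducible secreted inhibitor, and Timp2 (chr11:118301069-118355740, minus strand) ran in opposite directions between the cell types in the comparisons that follow. The promoters of these 4 members are shown because their letters differ in kind. The sequences are from RefSeq on GRCm38.p6, each with 250 bases before and 50 bases after an annotated start, and 6 of the 9 members had an entry. Capitals mark the motif TGANTCA, the AP-1 element, searched on both strands:
Mmp12 second start, chr9:7347124-7347423, plus strand: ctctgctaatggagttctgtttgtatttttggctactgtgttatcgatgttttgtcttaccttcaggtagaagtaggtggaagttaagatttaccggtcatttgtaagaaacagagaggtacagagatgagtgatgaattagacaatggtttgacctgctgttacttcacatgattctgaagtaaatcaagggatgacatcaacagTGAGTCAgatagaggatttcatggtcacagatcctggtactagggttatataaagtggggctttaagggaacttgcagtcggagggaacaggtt
Mmp13, chr9:7272264-7272563, plus strand: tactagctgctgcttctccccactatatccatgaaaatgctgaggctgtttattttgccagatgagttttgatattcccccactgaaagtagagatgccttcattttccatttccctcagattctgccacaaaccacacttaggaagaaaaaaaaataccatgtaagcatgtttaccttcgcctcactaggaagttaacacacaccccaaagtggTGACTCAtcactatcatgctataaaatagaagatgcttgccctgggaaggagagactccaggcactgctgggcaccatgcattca
Timp1, chrX:20869916-20870215, plus strand: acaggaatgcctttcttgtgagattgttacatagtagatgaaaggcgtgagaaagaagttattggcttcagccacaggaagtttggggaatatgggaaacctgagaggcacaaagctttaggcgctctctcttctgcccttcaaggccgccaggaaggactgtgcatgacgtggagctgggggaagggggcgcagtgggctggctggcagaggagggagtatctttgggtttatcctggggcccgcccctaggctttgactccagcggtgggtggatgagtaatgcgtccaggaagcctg
Timp2, chr11:118355362-118355661, minus strand: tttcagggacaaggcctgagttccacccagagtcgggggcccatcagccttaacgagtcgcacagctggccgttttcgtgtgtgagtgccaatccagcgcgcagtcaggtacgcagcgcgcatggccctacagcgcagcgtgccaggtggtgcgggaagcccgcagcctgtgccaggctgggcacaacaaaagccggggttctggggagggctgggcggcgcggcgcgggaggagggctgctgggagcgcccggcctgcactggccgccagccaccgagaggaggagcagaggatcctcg
The AP-1 motif began at position -44 from the start in Mmp12 and at position -35 in Mmp13, and it was found in 7.81% of 32851 promoters of the same length. These exact letters were not in the windows of Timp1 or Timp2, nor in those of Mmp14 or Timp3. Near matches were not searched, and the Timp1 window holds TGAGTAA, which differs from the motif by 1 letter. The search therefore does not show that a window lacks an AP-1 element. The window of the first annotated Mmp12 start (chr9:7344147-7344446) held neither this motif nor TATAAA, and had 38.7% G or C with 0 CpG pairs. The Mmp12 window at the second start and the Mmp13 window also held TATAAA, found in 13.6% of promoters. It began at position 5, after the annotated start, in Mmp12 and at position -16 in Mmp13. These 2 windows had 40.7% and 43.7% G or C with 3 and 1 CpG pairs. The Timp1 window had 55% G or C with 8 CpG pairs, and the Timp2 window 68.7% with 25. Both inhibitor windows held the GC box GGGCGG, counted on both strands, which 35.7% of promoters contain.

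Levels were compared between genes only as normalized reads per kilobase of exon. Timp2 and Mmp14 led in macrophages of both genotypes. Timp2 averaged 3082 normalized reads per kilobase in knockout macrophages and 4315 in wild-type macrophages, and Mmp14 averaged 2579 and 3009. Mmp12 came next, at 335 in knockout and 322 in wild-type macrophages. In monocytes Mmp14 led, at 1580 normalized reads per kilobase in the knockout and 1998 in wild type. Timp1 and Timp2 followed it. Their levels were 595 ± 129 and 526 ± 132 in knockout monocytes, and 381 ± 113 and 615 ± 243 in wild-type monocytes (SD, n = 4 each), so these neighbours in the order lay within their spread. Timp3 was lowest in every group, at 0.49 normalized reads per kilobase in knockout macrophages, 1.92 in wild-type macrophages, 6.61 in knockout monocytes and 7.63 in wild-type monocytes. Reads over overlapping genes could not be separated, because the library kit does not mark strand. This touches Mmp19, which shares 789 bases of exon with Tmem198b on the other strand, and Timp3, which shares 1733 bases with Syn3. Tmem198b reached at most 297 normalized reads and Syn3 at most 10.6.

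The make-up of each class differed by cell type. Timp2 held 97.7% ± 0.451 of the inhibitors' reads per kilobase in knockout macrophages and 98.1% ± 0.886 in wild-type macrophages. Its share was 46.6% ± 5.51 in knockout monocytes and 60.2% ± 9.23 in wild-type monocytes (SD, n = 4 each). Timp1 made up nearly all of the rest, with 52.8% in knockout and 39% in wild-type monocytes, against 2.25% and 1.85% in macrophages. Mmp14 was the main proteinase transcript everywhere, with 78.7% of the 6 proteinases' reads per kilobase in knockout macrophages, 76.6% in wild-type macrophages, 60.4% in knockout monocytes and 66.1% in wild-type monocytes. Mmp19 held 13.6% ± 6.42 in knockout monocytes and 7.05% ± 1.6 in wild-type monocytes, but 1.23% ± 0.367 and 1.2% ± 0.17 in the macrophages.

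**Figure D1:**
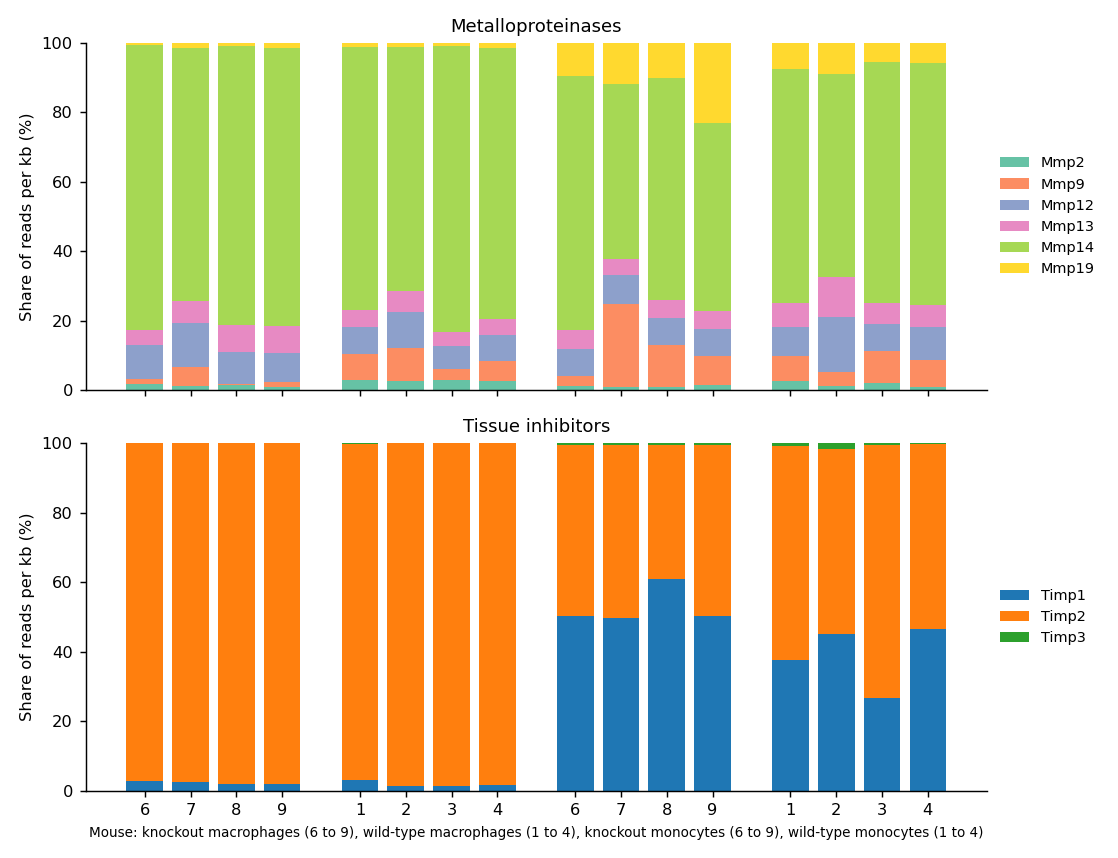
Share of each member in the reads per kilobase of its class (%), proteinases above and inhibitors below, with 1 bar per library, ordered as knockout macrophages, wild-type macrophages, knockout monocytes and wild-type monocytes. Timp2 fills 96.8% to 98.7% of the inhibitor bar in wild-type macrophages, against 53.2% to 72.8% in wild-type monocytes.

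The first comparison set macrophages against monocytes of the same tumours. Among the inhibitors Timp2 was higher in macrophages and Timp1 was lower, in both genotypes, while Timp3 was lower in wild type and near its detection limit in knockout macrophages. Timp2 had 12332, 12874, 10126 and 12696 normalized reads in the macrophages of knockout mice 6 to 9, against 1752, 2003, 1650 and 2788 in their monocytes, 5.86-fold higher on average (log2 difference 1.81 ± 0.10 SE, limma, adjusted p = 6.79e-08). In wild-type mice 1 to 4 it had 14676, 16381, 18496 and 17694 normalized reads in macrophages, against 3436, 1522, 2957 and 1670 in monocytes, 7.02-fold higher (log2 difference 2.07 ± 0.17 SE, adjusted p = 9.84e-06). All macrophage libraries lay above all monocyte libraries.

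Timp1 went the other way. The macrophages of knockout mice 6 to 9 had 78.2, 77, 43.4 and 55.8 normalized reads of Timp1, against 407, 458, 598 and 650 in monocytes, a mean of 0.12 of the monocyte level (adjusted p = 9.55e-08). In wild-type mice 1 to 4 the macrophages had 107, 50.5, 55.4 and 68.5 normalized reads, against 479, 294, 247 and 332 in monocytes. The macrophage mean was 0.208 of the monocyte mean there (log2 difference -1.55 ± 0.17 SE, adjusted p = 2.00e-05), and neither genotype had overlapping libraries. Timp3, an inhibitor that binds to the matrix and also blocks the ectodomain sheddase ADAM17, was near the detection limit in macrophages. Its 4 knockout macrophage libraries held 8, 4, 0 and 6 reads, and the 0 of mouse 8 allows up to 3 reads, or 3.18 normalized reads, a limit for counting error only. The knockout monocytes held 40.4 to 72.3 normalized reads of Timp3. Only 3 of 4 knockout macrophage libraries reached the filter's linear value of 10 on the deposited scale, so Timp3 entered the knockout comparison through its monocytes, and its difference there, -1.85 on the log2 scale, is given with no test. In wild-type mice all 4 libraries of each cell type reached that value on the deposited scale. That scale draws low values up, and the macrophages of mouse 3 reached it with 5.54 normalized reads of Timp3. The test of Timp3 in wild-type mice carries this limit. There the log2 difference of Timp3 was -1.17 ± 0.35 (SE, adjusted p = 0.014), and the libraries of the cell types overlapped.

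**Figure D2:**
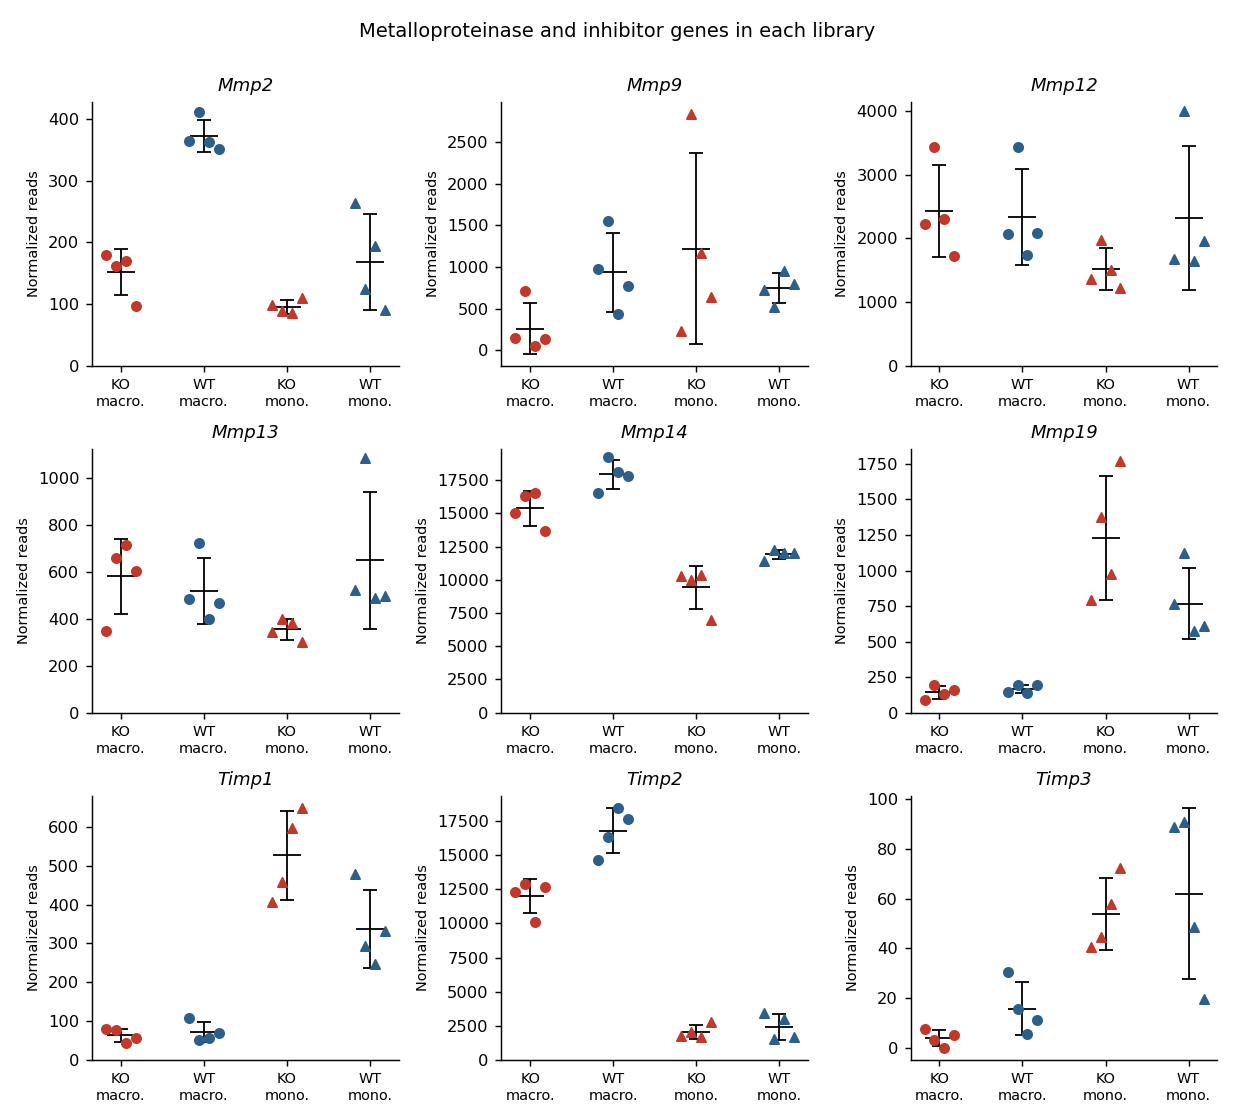
Normalized reads of the 9 members in each library, with circles for macrophages and triangles for monocytes, red for C3 knockout (KO) and blue for wild type (WT), and bars for the mean and SD of 4 mice. Each panel has its own linear axis. Timp2 stands at 10126 to 18496 normalized reads in all macrophage libraries, above the highest monocyte library at 3436, and Mmp2 lies at 96.6 to 179 in knockout macrophages, below the 352 to 411 of wild-type macrophages.

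Mmp14 and Mmp2 were higher and Mmp19 lower in macrophages than in monocytes. Mmp14, the membrane-anchored activator of MMP2, averaged 15373 ± 1339 normalized reads in knockout macrophages and 9419 ± 1651 in knockout monocytes (SD, n = 4 each; log2 difference 0.51 ± 0.09 SE, adjusted p = 0.000338). Wild-type macrophages averaged 17932 ± 1102 and wild-type monocytes 11908 ± 357 (log2 difference 0.43 ± 0.04, adjusted p = 7.07e-06). The libraries did not overlap in either genotype. Mmp2, gelatinase A, had 179, 162, 169 and 96.6 normalized reads in the macrophages of knockout mice 6 to 9, against 97.7, 88, 85.9 and 110 in their monocytes. That difference was 1.59-fold (log2 difference 0.42 ± 0.13, adjusted p = 0.0158), with macrophages higher in 3 of 4 mice. In wild-type mice 1 to 4 it had 364, 411, 362 and 352 in macrophages, against 264, 125, 194 and 90.5 in monocytes, 2.21-fold higher (log2 difference 0.89 ± 0.20, adjusted p = 0.00275). The knockout difference no longer passed without the macrophages of mouse 6 (adjusted p = 0.0515) or without the monocytes of mice 7 and 8 (0.122), in a range of 0.000972 to 0.122 over the alternatives.

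Mmp19, a secreted proteinase that cuts basement membrane components, had the lowest difference of the 6 proteinases between macrophages and monocytes in both genotypes. The macrophages of knockout mice 6 to 9 had 86.5, 194, 129 and 161 normalized reads, against 795, 1380, 978 and 1770 in monocytes, 0.116 of the monocyte mean (log2 difference -2.18 ± 0.21 SE, adjusted p = 2.16e-05). The macrophages of wild-type mice 1 to 4 had 144, 194, 137 and 194 normalized reads, against 762, 1122, 575 and 610 in monocytes, 0.218 of the monocyte mean (log2 difference -1.51 ± 0.15, adjusted p = 1.39e-05). No macrophage library reached a monocyte library. Mmp12 and Mmp13 were higher in macrophages in knockout mice, each with a log2 difference of 0.47 (Mmp12 ± 0.15 SE, adjusted p = 0.0266, and Mmp13 ± 0.14, adjusted p = 0.0151). In wild-type mice the differences were 0.04 ± 0.23 for Mmp12 and -0.20 ± 0.20 for Mmp13, and neither passed (adjusted p = 0.886 and 0.424). The knockout call of Mmp12 was lost without the macrophages of mouse 8 (0.0533), without the monocytes of mouse 6, 8 or 9 (0.076, 0.0573 and 0.0738) and when all 16 libraries shared 1 fit (0.0755), in a range of 4.11e-05 to 0.076.

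In all, with Timp3 left out in the knockout, 7 of 8 members passed in knockout mice, beside 60.5% of the 12772 genes tested. In wild-type mice 6 of 9 passed, beside 63.4% of 12769, and Timp3, with the limit given above, was among them. In the knockout 5 were higher and 2 lower in macrophages, beside 31% and 29.6% of genes, and in wild type 3 were higher and 3 lower, beside 31.7% and 31.7%. The share in wild type was near that of all genes. The member that passed in neither genotype was Mmp9. Groups did not overlap for 4 of these 8 members in the knockout, beside 55.2% of genes, and for 5 of 9 in wild type, beside 57.6%. With the mouse as a block, since each mouse gave both libraries, Mmp13 in wild type passed as well (log2 difference -0.20, adjusted p = 0.0364, range 0.0364 to 0.969 over its alternatives), beside 65.8% of genes, and its macrophage value lay below the monocyte value in 4 of 4 mice.

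**Figure D3:**
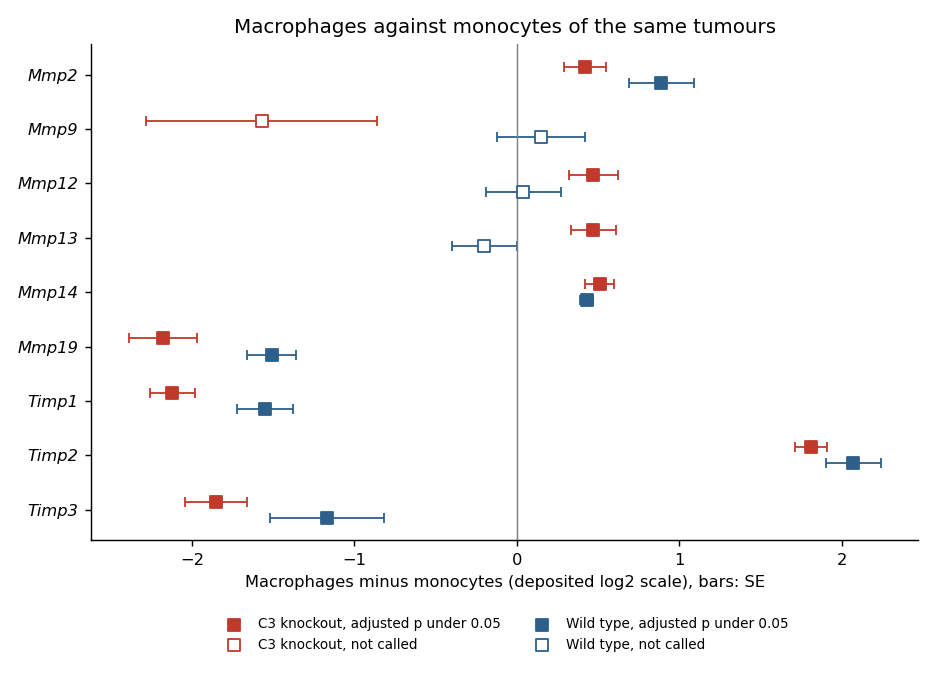
Log2 difference of each member between macrophages and monocytes (positive values are higher in macrophages) on the deposited scale, red for C3 knockout and blue for wild type, with bars for the SE. Filled symbols passed at an adjusted p under 0.05, where that of Timp3 in the knockout carries no test, since it entered the fit through its monocyte libraries. Timp2 lies at 1.81 in the knockout and 2.07 in wild type, and Mmp19 and Timp1 lie below -1.5 in both genotypes.

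The second comparison set knockout against wild-type macrophages. Mmp2 and Timp2, the enzyme and the adaptor that meet on MMP14, fell in knockout macrophages. Mmp2 fell to 179, 162, 169 and 96.6 normalized reads in knockout mice 6 to 9, against 364, 411, 362 and 352 in wild-type mice 1 to 4. The highest knockout library lay below the lowest wild-type library, and the knockout mean was 0.408 of the wild-type mean (log2 difference -0.94 ± 0.12 SE, limma, adjusted p = 0.00071). The call held in all 16 alternatives, with adjusted p-values of 1.89e-05 to 0.00544. Timp2 fell to 12332, 12874, 10126 and 12696 normalized reads, against 14676, 16381, 18496 and 17694, again without overlap, at 0.714 of the wild-type mean (log2 difference -0.37 ± 0.07, adjusted p = 0.00962). Timp2 did not pass when all 16 libraries shared 1 fit (adjusted p = 0.234), where 1 member and 4.12% of genes did. Nor did it pass in the authors' deposited table (0.195), where 2 members, Mmp2 and Timp3, and 6.07% of genes did. Its adjusted p-values spanned 0.0051 to 0.234 over the alternatives. Fewer cells that express a gene and less RNA per cell cannot be told apart in bulk libraries.

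Mmp14 itself had 15004, 16329, 16520 and 13638 normalized reads in knockout macrophages, against 16536, 19213, 18139 and 17838 in wild-type macrophages. The groups did not overlap, the closest libraries being 16520 and 16536, but the difference of -0.16 ± 0.05 (SE, log2) did not pass (adjusted p = 0.107). Mmp9, gelatinase B, had the widest relative spread of the 9 members in knockout macrophages, with a coefficient of variation of 117%. It had 145, 709, 51.9 and 130 normalized reads in knockout mice 6 to 9, against 972, 1556, 432 and 775 in wild-type mice 1 to 4. Mouse 7 stood inside the wild-type range and the other 3 below it. The log2 difference of -1.55 ± 0.54 did not pass (adjusted p = 0.179), although it did without mouse 7 (-2.01, adjusted p = 0.032, range 0.032 to 0.35 over the alternatives).

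Timp3 had a log2 difference of -0.71 between knockout and wild-type macrophages. It had 0 to 8 recovered reads per knockout library, against 6 to 32 per wild-type library. It met the filter through the wild-type libraries, since 3 of 4 knockout libraries reached a linear value of 10. The difference is therefore given with no test. The authors' deposited table called Timp3 (adjusted p = 0.0316), on the same few reads. Mmp12, Mmp13, Mmp19 and Timp1 differed by 0.04, 0.11, -0.17 and -0.08 on the log2 scale between knockout and wild type, with adjusted p-values of 0.592 to 0.938. In all, with Timp3 left out, 2 of 8 members were called, both lower, beside 5.7% of 12568 genes, with 3.13% lower and 2.57% higher. At an unadjusted p under 0.05 there were 4 of these 8 members, beside 20.2% of genes. The median log2 difference of all 9 members, with Timp3 included, was -0.17, beside 0.00 over all genes tested. Groups did not overlap for 3 of the 8 members other than Timp3, beside 13.1% of genes.

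Markers of other cells moved with genotype in the macrophage libraries, some lower and some higher in the knockout. Beside the counts that follow, 5.7% of all genes tested passed by limma, 3.13% lower and 2.57% higher. An unadjusted p under 0.05 was reached by 20.2% of genes, and the authors' deposited table called 6.07%. The 14 fibroblast and sarcoma markers, genes of cells that can also transcribe Mmp2, summed to 234 to 1276 normalized reads in knockout macrophages and 1146 to 3123 in wild-type macrophages. Of 9 of them tested, 0 passed (limma) and 6 had an unadjusted p under 0.05, with a median log2 difference of -0.95, and 1 was called in the authors' deposited table. Of the 14 markers 1 was at 0 in all knockout macrophage libraries. In monocytes the same markers summed to 1140 to 7338 in the knockout and 4403 to 8809 in wild type. Of the red blood cell genes 4 of 4 tested passed, all lower in knockout macrophages, at 146 to 242 summed normalized reads, against 428 to 1275 in wild-type macrophages. Of these, Hbb-bt and Hba-a2 passed in all alternatives. Hba-a1 did not pass without knockout mouse 9 (adjusted p = 0.0585) or wild-type mouse 1 (0.0559), or when all 16 libraries shared 1 fit (0.058). Alas2 did not pass without knockout mouse 6, 8 or 9 or wild-type mouse 1 or 4 (0.0594 to 0.0802). Nor did Alas2 pass with voom (0.0563), with all 16 libraries in 1 fit (0.0668) or without trend and robust estimation (0.052). Of 10 macrophage markers 3 passed, Mrc1 at 0.76, Apoe at 0.677 and Mertk at 0.634 of the wild-type mean. Mertk did not pass without knockout mouse 6 or 7, without any 1 wild-type library (0.0529 to 0.0948) or without trend and robust estimation (0.0581). Mrc1 passed neither when all 16 libraries shared 1 fit (0.688) nor in the authors' deposited table (0.756). Apoe did not pass with no filter on low values (0.0762). Of the endothelial markers 1 of 4 tested passed, Kdr, 2.92-fold higher in knockout macrophages (adjusted p = 0.000444). That list summed to 920 to 1111 normalized reads in knockout macrophages, against 365 to 569 in wild-type macrophages. Most of the sum was Kdr itself, at 794 ± 63.2 and 272 ± 90.3 normalized reads (SD, n = 4 each). The median log2 difference of the endothelial markers tested was 0.18. Of the B cell markers 1 of 2 tested passed, Cd79b, 2.72-fold higher (adjusted p = 0.000741). Kdr and Cd79b passed in all 16 alternatives. The part of the genes of all these lists in the results was not tested.

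**Figure D4:**
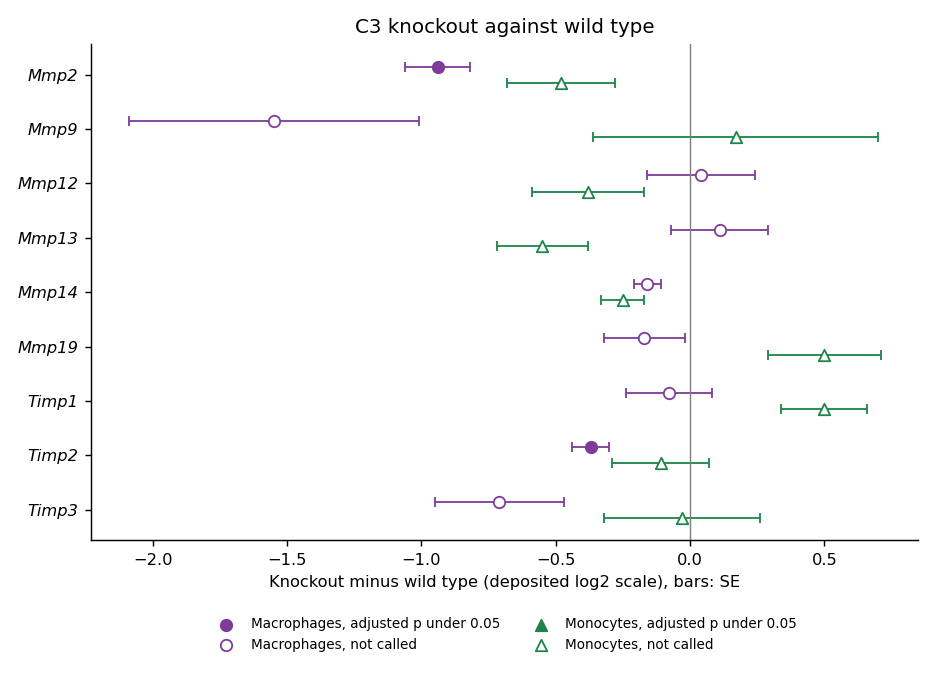
Log2 difference of each member between knockout and wild type (positive values are higher in the knockout) on the deposited scale, circles for macrophages and triangles for monocytes, with bars for the SE. Filled symbols passed at an adjusted p under 0.05. Only Mmp2 at -0.94 and Timp2 at -0.37, both in macrophages, are filled. The symbol of Timp3 in macrophages carries no test, since it entered the fit through its wild-type libraries.

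The third comparison set knockout against wild-type monocytes, and 0 of 9 members passed (limma), beside 3.32% of 12867 genes. At an unadjusted p under 0.05 there were 5 of 9 members, beside 17.4% of genes. Mmp13 had 343, 399, 383 and 300 normalized reads in knockout mice 6 to 9, against 524, 1083, 487 and 497 in wild-type mice 1 to 4, without overlap. Its log2 difference was -0.55 ± 0.17 (SE, adjusted p = 0.123). Mmp14 had 10319, 10012, 10391 and 6955 normalized reads in the knockout, against 11389, 12208, 12033 and 12003 in wild type, also without overlap (log2 difference -0.25 ± 0.08, adjusted p = 0.136). Groups did not overlap for these 2 members, beside 11.1% of genes. Mmp2 had 97.7, 88, 85.9 and 110 normalized reads in the knockout, against 264, 125, 194 and 90.5 in wild type, where mouse 4 lay inside the knockout range (adjusted p = 0.232).

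The calls of these 3 genes changed with the fit. In the authors' deposited table Mmp2 (adjusted p = 0.0224), Mmp13 (0.0143) and Mmp14 (0.0275) passed, all lower in the knockout, beside 9.43% of its 14087 genes. Over the alternatives their adjusted p-values ran from 0.0224 to 0.547, from 0.0143 to 0.297 and from 0.0275 to 0.244. With all 16 libraries in 1 fit Mmp14 passed (0.0449), beside 7.62% of genes. Timp1 and Mmp19 had positive differences. Timp1 had 407, 458, 598 and 650 normalized reads in knockout monocytes, against 479, 294, 247 and 332 in wild-type monocytes, where mouse 1 overlapped the knockout. The log2 difference of Timp1 was 0.50 ± 0.16 (adjusted p = 0.123), and without wild-type mouse 1 it was 0.63 and passed (adjusted p = 0.0353, range 0.0353 to 0.321). Mmp19 differed by 0.50 ± 0.21 (adjusted p = 0.26), and Mmp12 by -0.38 ± 0.21 (adjusted p = 0.401). Timp2 and Timp3 differed by -0.11 and -0.03.

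Mmp9 in monocytes rested on 2 libraries. It had 228, 2839, 1171 and 638 normalized reads in knockout mice 6 to 9, against 724, 524, 953 and 799 in wild-type mice 1 to 4. The 2 highest values belonged to knockout mice 7 and 8, and the lowest to knockout mouse 6. Of a list of 11 neutrophil markers, Ngp, Camp and Ltf, genes of granule proteins, were also high in those 2 libraries and were singled out after their values were seen. Mouse 7 had 4484, 633 and 1733 normalized reads of Ngp, Camp and Ltf, and mouse 8 had 3262, 1364 and 731. The other 6 monocyte libraries of both genotypes had at most 3.71, 2.57 and 17.4. Other markers of the list had lower means in the knockout. S100a8 averaged 417 ± 344 normalized reads in knockout monocytes and 1782 ± 560 in wild-type monocytes, Cxcr2 31.3 ± 22.1 and 118 ± 75, Elane 15.7 ± 15.6 and 53.4 ± 20.9, and Mpo 4.05 ± 2.13 and 11.8 ± 6.49 (SD, n = 4 each). Of 7 markers tested 1 passed (limma), Retnlg, at 272 ± 119 normalized reads in knockout monocytes and 31.3 ± 27.3 in wild-type monocytes (adjusted p = 0.00794, and 0.0649 without mice 7 and 8, in a range of 0.00033 to 0.0649). Over all genes tested in monocytes 3.32% passed by limma. The authors' deposited table called 4 markers of the list, beside 9.43% of its genes, and the median log2 difference of the markers tested was -1.36. The whole list summed to 2881 to 12124 normalized reads in knockout monocytes and 4287 to 7983 in wild-type monocytes. The part of these transcripts in the Mmp9 values was not tested. Ly6g, the marker the sort removed, stood at 0.965 to 2.82 normalized reads in the knockout monocytes. The log2 difference of Mmp9 between knockout and wild type was 0.17 ± 0.53 (SE, adjusted p = 0.914), and without mice 7 and 8 it was -0.65 ± 0.28 (adjusted p = 0.33). Without mouse 7 alone it was -0.27. No alternative called it, with adjusted p-values of 0.33 to 0.981.

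Between the cell types of knockout mice, Mmp9 had a log2 difference of -1.57 ± 0.71 (SE, macrophages minus monocytes, adjusted p = 0.101). It was lower in the macrophages of 4 of 4 mice, with values of -0.40 to -2.84 on the deposited scale. It passed without the macrophages of mouse 7 (adjusted p = 0.0435), without the monocytes of mouse 6 (0.0477) and with all 16 libraries in 1 fit (0.0236), in a range of 0.0236 to 0.452. In wild-type mice the difference was 0.15 ± 0.27 (adjusted p = 0.641), and macrophages were higher in 2 of 4 mice.

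The last comparison asked whether the knockout effect differed between the cell types, as the effect in macrophages minus the effect in monocytes. Of the members 0 of 9 passed (limma), beside 0.617% of 13134 genes. At an unadjusted p under 0.05 there were 4 of 9 members, beside 11.4% of genes. They were Mmp9 (-1.72 ± 0.78 SE, adjusted p = 0.423), Mmp13 (0.66 ± 0.27, adjusted p = 0.348), Mmp19 (-0.67 ± 0.28, adjusted p = 0.363) and Timp1 (-0.57 ± 0.24, adjusted p = 0.363). For Mmp2, which passed in macrophages but not in monocytes, the difference of effects was -0.47 ± 0.25 (adjusted p = 0.509), and for Timp2 it was -0.26 ± 0.22 (adjusted p = 0.738). The effects on these genes were therefore not shown to differ between the cell types.

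With the mouse as a block 3 of 9 members passed, beside 1.91% of genes: Mmp12 (0.42, adjusted p = 0.0201), Mmp13 (0.66, adjusted p = 0.0368) and Mmp19 (-0.67, adjusted p = 0.0397). Over the alternatives their adjusted p-values reached 0.853, 0.602 and 0.613. The within-mouse values show what the block uses. Macrophages minus monocytes, Mmp12 stood at 0.50, 0.58, 0.44 and 0.35 on the log2 scale in knockout mice 6 to 9, against 0.21, -0.16, 0.06 and 0.06 in wild-type mice 1 to 4. For Mmp13 the values were 0.02, 0.51, 0.64 and 0.70 in the knockout, against -0.09, -0.43, -0.20 and -0.07 in wild type. For Mmp19 they were -2.15, -2.04, -2.03 and -2.49 in the knockout, against -1.66, -1.81, -1.41 and -1.15 in wild type. The within-mouse differences of the genotypes did not overlap for these 3 of 9 members, beside 8.27% of genes. Since the block uses the same differences, this count is a description. They overlapped for the other 6 members. Mouse 2 had the highest wild-type value of Mmp12 in both of its libraries, at 3437 and 4002 normalized reads in macrophages and monocytes, and likewise of Mmp13, at 724 and 1083.

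**Figure D5:**
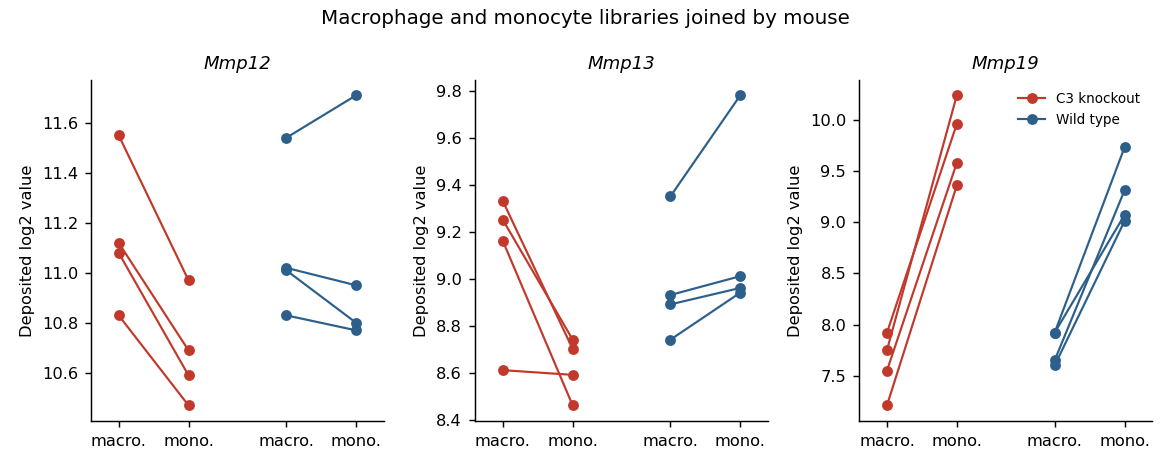
Deposited log2 values of Mmp12, Mmp13 and Mmp19 in the macrophage (left point) and monocyte (right point) library of each mouse, joined by a line, red for C3 knockout and blue for wild type. Mmp13 lines slope down in the 4 knockout mice and up in the 4 wild-type mice, and all 8 Mmp19 lines rise towards the monocyte library.

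Genes that act with the members were counted in lists of related functions. Of the other family members, 16 of 18 were in the matrix and 3 passed the filter. Mmp8, a collagenase of neutrophil granules, averaged 24.6 ± 8.87 normalized reads in knockout macrophages and 2469 ± 455 in knockout monocytes, and 28.8 ± 8.92 in wild-type macrophages and 3416 ± 741 in wild-type monocytes (SD, n = 4 each; adjusted p = 5.43e-11 and 1.11e-09). Mmp25, a membrane-anchored family member, was 2.51-fold higher in macrophages in the knockout and 2.74-fold in wild type, and Mmp11 was lower in both. Between genotypes 0 of the 3 passed (limma) in either cell type, with 1 at an unadjusted p under 0.05 in each, and the authors' deposited tables called 1 in macrophages and 0 in monocytes. Over all genes tested, 20.2% in macrophages and 17.4% in monocytes had an unadjusted p under 0.05, and those tables called 6.07% and 9.43%, which also stand beside the counts of the lists that follow.

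The list of the plasminogen system, whose product plasmin can cut metalloproteinase precursors, held 1 gene called by genotype in each cell type. Plau, the gene of urokinase, rose in knockout monocytes to 357 ± 22.3 normalized reads, against 134 ± 34.7 in wild-type monocytes (SD, n = 4 each; 2.67-fold, log2 difference 0.97 ± 0.11 SE, adjusted p = 0.000387). Its knockout effect was lower in macrophages than in monocytes (difference of effects -0.82 ± 0.13, adjusted p = 0.0036). Plgrkt, a plasminogen receptor gene, fell in knockout macrophages to 0.732 of wild type (adjusted p = 0.01). By limma 1 of 10 tested genes of the list was called by genotype in each cell type, beside 5.7% of genes in macrophages and 3.32% in monocytes. The authors' deposited tables called 1 in macrophages and 2 in monocytes. Between cell types 9 of 10 were lower in wild-type macrophages, beside 31.7% of genes, among them Plaur, the urokinase receptor (0.415 of monocytes), and Anxa2 (0.196), and the exception was Plau (2.99-fold higher in macrophages). The list's median log2 difference was -0.94 there, beside -0.01 for all genes tested. In knockout macrophages 8 of 10 were lower and 1 higher, beside 29.6% and 31% of genes, with a median of -0.98.

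Cofactors and regulators had 0 of 10 calls by genotype in either cell type (limma), 4 of 10 at an unadjusted p under 0.05 in each, and 1 in macrophages and 2 in monocytes in the authors' deposited tables. Between cell types 8 of 10 were lower in macrophages of each genotype, beside 29.6% of genes in the knockout and 31.7% in wild type. These include Lcn2, which had 0 normalized reads in every macrophage library. Thbs1, the gene of thrombospondin 1, averaged 11439 ± 3732 normalized reads in knockout macrophages and 197695 ± 79809 in knockout monocytes, and 8686 ± 2171 in wild-type macrophages and 275469 ± 66322 in wild-type monocytes. Cd44, a hyaluronan receptor that can hold MMP9 at the cell surface, was at 0.366 of the monocyte mean in knockout macrophages and 0.392 in wild-type macrophages. The AP-1 and Ets factors and their inputs also had 0 of 11 calls by genotype in either cell type (limma). At an unadjusted p under 0.05 there were 3 in macrophages and 4 in monocytes, and the authors' deposited tables called 1 in each. In macrophages against monocytes 8 of 11 were lower in each genotype, beside the same shares of genes. Jun was at 0.275 of the monocyte mean in wild-type macrophages, Fosl1 at 0.0786 in knockout macrophages, and Etv5 was higher, 2.29-fold in the knockout and 1.88-fold in wild type.

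Of 7 tested ADAM and ADAMTS genes 0 passed between knockout and wild-type macrophages (limma), with 4 at an unadjusted p under 0.05 and 0 called in the authors' deposited table. Adam17, the sheddase that TIMP3 blocks, was higher in macrophages than in monocytes (1.51-fold in the knockout, 1.36-fold in wild type), while Adam8 was lower (0.435 and 0.445). Of the 5 matrix-degrading cysteine cathepsins with cystatin C, Ctsk fell in knockout macrophages to 364 ± 116 normalized reads, against 989 ± 161 in wild-type macrophages (SD, n = 4 each; adjusted p = 0.00853), and Ctsb fell to 0.756 of wild type (adjusted p = 0.0083). The Ctsk call did not hold with all 16 libraries fitted together (0.455) or in the authors' deposited table (0.344), and its adjusted p-values spanned 0.000445 to 0.455. Among 10 tested matrix genes Col4a2, a basement membrane collagen chain, fell in knockout macrophages to 37.8 ± 22.5 normalized reads, against 93.9 ± 8.12 in wild-type macrophages (SD, n = 4 each; adjusted p = 0.0431). It passed in 7 of 16 alternatives, and leaving out any wild-type macrophage library or that of knockout mouse 6 or 9 ended the call (0.0729 to 0.113). Between cell types 9 of 10 matrix genes were lower in knockout macrophages, beside 29.6% of genes, and 10 of 11 in wild-type macrophages, beside 31.7%, led by Vcan at 0.00913 and 0.0108 of the monocyte mean. These counts were not screened for genes that met the filter through the monocytes alone.

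Across the 16 libraries the genes most like each member were ranked by Pearson r of the deposited log2 values among 11452 genes. These libraries share mice, and the r values mostly carry the difference between cell types. Timp2 was most like Cd63, a tetraspanin of late endosomes (r = 0.995), Mmp14 most like Lpcat2 (0.979), and Mmp19 most like Por (0.982), Ccl6 (0.980) and Cd44 (0.972). Timp1 was most like Hdc (0.978) and Timp3 most like Rchy1 (0.956). Mmp2 was most like Vcam1 (0.954), P2rx4 (0.921) and Lgals3bp (0.913). Mmp12 had its neighbour Mmp13 as its most similar gene (0.818), while Mmp13 was most like Tfg (0.846) and Mmp9 most like Sh3gl1 (0.811).

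After the mean of each group was removed, the ranking used only the spread between mice of a group. Mmp12 was then most like Plaur (r = 0.918), Rabgef1 (0.903) and Adam8 (0.889), of which Plaur and Adam8 also stood in the lists above. Timp2 was most like Arhgef40 (0.931) and again Cd63 (0.922). The closest genes to the others were Pde8b for Mmp2 (0.929), Gnl1 for Mmp14 (0.912), Mpzl3 for Mmp13 (0.911), Gda for Mmp19 (0.911), Glyr1 for Mmp9 (0.857), Rexo5 for Timp3 (0.844) and Ccar1 for Timp1 (0.828), each over 16 libraries. These r values are the highest among 11452 genes searched, and how high they would be by chance was not tested.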

How the data were processed

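RNA of 16 libraries, 5 ng each, was made with the SMART-Seq v4 kit, per the labels' protocols. The authors used bcl2fastq 2.19.0.316, STAR 2.7.2b, DESeq2 and GRCm38, per the submitters' processing notes, which give no roles. The authors deposited log2 values of 30819 genes, whose transform no header names. The values followed a regularized logarithm. Their deposited tables hold, per the file headers, a base mean (signal), log2 fold changes (turned here to knockout over wild type), a Wald score, and p-values with adjusted p-values. The matrix held 0 columns of other samples.

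Recovered reads came from solving that transform for the read number, using the deposited base means. Where the base mean was 1 or more (20443 genes), 81.5% of values were whole within 0.05 read, and 40.7% above a base mean of 1000, with a median distance of 0.00255% of the value. Exon lengths came from GENCODE on GRCm38.

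limma 3.58.1 (R 4.3.3), with trend and robust estimation, was fitted to the deposited log2 values, using the 8 libraries of each comparison, or all 16 for the difference of effects. The filter required a linear value of 10 in 4 or more libraries. Calls needed an adjusted p (Benjamini-Hochberg, over all genes tested) under 0.05. Timp3 was left out of counts where 1 group alone brought it past the filter on the deposited scale. The genes of the lists were not screened in this way. The p-values set each difference against the spread between libraries, as limma estimated it. Without the block, the fits between cell types and of the difference of effects treat both libraries of a mouse as independent. The fit was tested on simulated data. Members and lists were chosen with earlier results of these data known. All members were named, and from each list the 2 to 4 called genes with the smallest adjusted p. Ngp, Camp, Ltf and Ly6g were named after their values were seen. Both cell types of a mouse carry its number in the labels, and their deviations from group means correlated at 0.031 to 0.417, against -0.323 to 0.188 between mice. Alternatives varied the filter, scaling, scale, spread estimate, block and libraries. Chi-square per gene between libraries of a group was 10.3 to 45.9, so none was a copy.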

Additional observations from a re-analysis of the deposited data

Results flagged for a closer look

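Among 36 groups of 4 libraries, 3 had a library far from the other 3, while chance flags about 1 in 20 groups. On the deposited log2 scale, the value given is the gap to the nearest library divided by the group's range. Mmp2 in knockout macrophages was lowest in mouse 9, at 96.6 normalized reads beside 162 to 179 (0.832). Mmp13 in wild-type monocytes was highest in mouse 2, at 1083 beside 487 to 524 (0.913). Mmp14 in knockout monocytes was lowest in mouse 9, at 6955 beside 10012 to 10391 (0.906).

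The knockout effect differed between macrophages and monocytes for 3 members when the mouse was a block in limma's fit. The adjusted p was 0.0201 for Mmp12, 0.0368 for Mmp13 and 0.0397 for Mmp19, with differences of effects of 0.42, 0.66 and -0.67 on the log2 scale. Without the block none of the 3 passed, at adjusted p-values of 0.679, 0.348 and 0.363.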

How the results depend on the processing

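With all 16 libraries in 1 fit, 1 member was called between genotypes in macrophages (2 in the main result) and 1 in monocytes (0), with 981 genes in monocytes (427). The authors' deposited table called 3 members and 1329 genes in monocytes, and leaving out knockout monocytes 7 and 8, chosen after seeing the data, left 254 genes. With the mouse number as replicate block, the difference of effects called 3 members and 251 genes, against 0 and 81 without it. It changed 1 other call of a member, Mmp13 between cell types of wild-type mice. Leaving out 1 library at a time gave 458 to 656 genes and 2 to 3 members in macrophages, the lowest without wild-type mouse 2. It gave 237 to 459 genes and 0 to 1 members in monocytes, where the gene count fell to 237, 243, 282, 263 and 280 without knockout mouse 8 or 9 or wild-type mouse 2, 3 or 4. It gave 48 to 125 genes and 0 members for the difference of effects, the extremes without the wild-type macrophages of mouse 3 and the knockout monocytes of mouse 7.

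Directions turned only in differences that were not called, and of these Mmp13 between cell types of wild-type mice passed in 1 setting, the block (adjusted p = 0.0364). Leaving out 1 library gave log2 ranges, knockout against wild type, of -0.09 to 0.19 for Mmp12 and -0.16 to 0.06 for Timp1 in macrophages. In monocytes the ranges were -0.27 to 0.61 for Mmp9, -0.24 to 0.02 for Timp2 and -0.33 to 0.14 for Timp3. Between cell types of wild-type mice they were -0.06 to 0.39 for Mmp9, -0.10 to 0.26 for Mmp12 and -0.32 to 0.01 for Mmp13, and for the difference of effects -0.01 to 0.13 for Mmp14. Without knockout monocytes 7 and 8 the genotype difference in monocytes was -0.65 for Mmp9 and 0.01 for Timp3, and voom gave 0.05 for Timp3. The difference of effects of C3 was -0.06 with voom and -0.06 on log2 reads. The cause was not tested. Depth limits Timp3 in macrophages, at 0 to 32 reads per library.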
